A study of Mus musculus with 12 samples.

Results

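Of the genes measured in BV2 cells, 49 that act in G2 and mitosis were followed across 6 culture conditions. They were taken by symbol from a list of G2/M and mitotic genes, and all 49 were found among the 43432 genes of the tables. BV2 is an immortalized line of mouse microglia, the macrophages of the brain. Its cells were left untreated, received lipopolysaccharide (LPS, bacterial endotoxin, 100 ng/mL), or received the same LPS 1 h after 6-gingerol or 6-shogaol at 10 or 30 µM. Both compounds are pungent phenols of ginger, and 6-shogaol is the dehydration product of 6-gingerol, with an α,β-unsaturated ketone where 6-gingerol has a β-hydroxy ketone. All cells were in serum-free medium from at least 4 h before the compounds, untreated cells included, and no group received a compound without LPS. The time of harvest after LPS is not given in the sources used here.

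Each of the 6 groups held 2 libraries, 12 in all, with totals of 16534960 to 21179867 expected counts (reads assigned to genes by the program RSEM, fractions included). Levels are given as CPM, a gene's reads at equal library size, here after TMM scaling in edgeR. No label states whether the libraries of a group were separate cultures, so the p-values reflect the spread among these libraries alone, which may be technical. Marker genes were checked against the microglial label. All 12 microglia and macrophage markers passed the filter on low counts, at a summed 2160 to 2390 CPM in every library. Most of the sum came from genes that other macrophages share, with Cd68 the highest (660 to 895 CPM). Markers that set microglia apart from other macrophages were low, at 0.282 to 0.848 CPM for P2ry12, 0.282 to 1.09 CPM for Cx3cr1 and 2.68 to 5.92 CPM for Tmem119. Summed levels were 0 to 0.456 CPM for 6 astrocyte markers (Aqp4 and Slc1a3 at 0), 0 to 0.329 CPM for 6 neuron markers (Snap25 and Stmn2 at 0) and 1.10 to 3.14 CPM for 6 oligodendrocyte markers (Mog, Mag and Olig2 at 0). The oligodendrocyte sum was 2.60 to 3.14 CPM with LPS and 1.10 to 1.52 CPM with 30 µM 6-shogaol. The 6 fibroblast and endothelial markers summed to 125 to 165 CPM, mostly from Kdr, with Col1a2 at 0, and to 128 to 134 CPM with LPS or with 30 µM 6-shogaol.

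A cell enters mitosis when the kinase CDK1, bound to cyclin A and then cyclin B, is freed of its inhibitory phosphates by CDC25 phosphatases. Condensins fold the chromosomes, kinetochores tie them to spindle microtubules, and the spindle assembly checkpoint holds the anaphase-promoting complex (APC/C) until every kinetochore is attached. The APC/C with CDC20 then has securin and cyclin B destroyed, separase cuts cohesin, and the cell divides. Transcripts of these genes build up late in the cycle, in good part through a CHR element and CCAAT boxes in their promoters, which bind the DREAM and MuvB complexes and the factor NF-Y. BV2 cells cycle in culture. In bulk RNA, more cells in G2 or mitosis and more of a transcript per cell cannot be told apart.

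These 2 kinds of element were present in most promoters of the set, in genes that rose and in genes that fell with 30 µM 6-shogaol alike. RefSeq windows of 300 bases, from 250 before to 50 after a gene's start (build GRCm38.p6), were held for 40 of the 49 genes, in 42 windows. The CHR letters TTTGAA or TTCGAA were searched on both strands, the palindrome TTCGAA being counted once, and so was CCAAT. A CHR and a CCAAT match can share at most 1 base and were counted separately. A CHR match lay in 33 of the 42 windows (78.6%), against 19.2% of all 32851 windows of that length. CCAAT lay in 33 (78.6%), against 37.4% of all windows. Both lay in 30 (71.4%), against 7.52%. By response to 30 µM 6-shogaol, a CHR match was in 20 of 24 windows of genes called higher (83.3%), in both windows of genes called lower, and in 11 of 16 windows of genes not called (68.8%). CCAAT was in 18 of the 24 windows called higher (75%), in both called lower and in 13 of the 16 not called (81.2%). A CHR match and CCAAT together were in 17 of the 24 (70.8%), in both called lower and in 11 of the 16 (68.8%). Nuf2, Mad2l1 and Ncaph were called higher with neither match in their windows. A match describes the letters only and does not show that a factor binds.

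The windows of 2 genes that rose, Cdk1 (chr10:69352863-69353162, minus strand) and Ttk (chr9:83834439-83834738, plus strand), are printed beside those of the 2 genes that fell, Ccnb2 (chr9:70421505-70421804, minus strand) and Cenpa (chr5:30666636-30666935, plus strand). They run 5′ to 3′ along the gene's strand, with CHR and CCAAT matches of either strand in capitals.
Cdk1: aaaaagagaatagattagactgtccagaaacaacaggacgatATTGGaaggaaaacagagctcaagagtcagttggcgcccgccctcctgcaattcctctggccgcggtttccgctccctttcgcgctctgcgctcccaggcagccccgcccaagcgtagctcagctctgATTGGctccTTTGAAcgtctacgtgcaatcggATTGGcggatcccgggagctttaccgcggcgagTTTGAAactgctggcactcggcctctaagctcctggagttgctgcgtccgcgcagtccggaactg
Ttk: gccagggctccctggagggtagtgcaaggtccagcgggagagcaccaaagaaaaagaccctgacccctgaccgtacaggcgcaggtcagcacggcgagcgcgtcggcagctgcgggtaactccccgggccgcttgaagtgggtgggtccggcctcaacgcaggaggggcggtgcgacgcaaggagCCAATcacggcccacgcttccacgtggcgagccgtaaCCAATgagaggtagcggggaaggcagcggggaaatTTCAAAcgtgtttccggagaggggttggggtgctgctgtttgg
Ccnb2: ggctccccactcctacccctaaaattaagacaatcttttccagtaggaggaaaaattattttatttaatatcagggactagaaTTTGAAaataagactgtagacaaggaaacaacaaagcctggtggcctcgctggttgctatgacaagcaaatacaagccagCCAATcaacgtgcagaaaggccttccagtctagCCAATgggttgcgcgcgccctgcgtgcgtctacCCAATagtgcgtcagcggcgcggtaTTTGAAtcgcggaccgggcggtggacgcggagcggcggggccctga
Cenpa: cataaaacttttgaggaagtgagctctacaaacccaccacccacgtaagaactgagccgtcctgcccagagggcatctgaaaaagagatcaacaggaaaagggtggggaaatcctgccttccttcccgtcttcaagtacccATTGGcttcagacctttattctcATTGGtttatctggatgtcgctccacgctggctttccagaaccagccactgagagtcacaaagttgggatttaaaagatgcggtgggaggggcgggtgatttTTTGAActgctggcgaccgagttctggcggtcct
In Cdk1, CHR matches began 71 and 15 bases before the start, and CCAAT, read on the other strand, 208, 80 and 48 bases before it. Ttk had a CHR match on the other strand 8 bases after the start and CCAAT 65 and 28 bases before it. Ccnb2 had CHR matches 167 bases before and 5 bases after the start, and 3 CCAAT matches 87, 54 and 21 bases before it. Cenpa had a CHR match 17 bases after the start and CCAAT on the other strand 109 and 86 bases before it. CHR letters near the start with CCAAT letters upstream thus stood in genes that rose and in genes that fell.

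The first question was which of the 6 conditions changed mitotic transcripts. With 30 µM 6-shogaol and LPS, 27 of the 49 genes were higher than with LPS alone and 2, the cyclin Ccnb2 and the centromeric histone Cenpa, were lower, at a Benjamini-Hochberg adjusted p under 0.05 in edgeR over all 12705 genes tested. The share called higher was 12.6% among all genes tested, and the share called lower 12.8%. The genes called higher had 1.21-fold to 2.03-fold the LPS level. The median log2 fold change was 0.33 for the 49 genes (range -0.44 to 1.02), against -0.00 for all genes. Both 30 µM 6-shogaol libraries lay above all 10 others for 27 of the 49 genes, as they did for 14.4% of all genes, and below all 10 others for 2, as they did for 12.4% of all genes. The 27 above all others were those called higher. Summed over the 49 genes, the level was 4329 to 4655 CPM in the other 10 libraries and 5635 and 6230 CPM in the 2 with 30 µM 6-shogaol. Some of the 27 calls were lost without 30 µM 6-shogaol replicate 2, and the number of all genes called higher also fell.

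No gene of the set was called in the other comparisons with LPS. For LPS against untreated, where 11.8% of all genes were called in either direction, edgeR called 0 of 49, with a median log2 change of 0.02 and a range of -0.25 to 0.26. At an unadjusted p under 0.05 there were 2, the topoisomerase Top2a (0.26) and the kinesin Kif20a (-0.25). Of all 12705 genes tested, 3129 passed that unadjusted threshold. DESeq2 called 1, Top2a (0.28, adjusted p = 0.0402), while limma-voom and limma on the authors' normalized values called none. For 10 µM 6-gingerol, edgeR called 0 of 49 and 0% of all genes, with a range of -0.12 to 0.23, and for 30 µM 6-gingerol again 0 of 49 and 0% of all genes, with a range of -0.22 to 0.17. None of the 49 had an unadjusted p under 0.05 for either dose of 6-gingerol, and DESeq2, limma-voom and limma on the authors' values called none. Among all 12705 genes, 243 had such a p at 10 µM and 189 at 30 µM. For 10 µM 6-shogaol, where 0.638% of all genes were called, edgeR and these 3 other tools called 0 of 49. At an unadjusted p under 0.05 stood 3, Ccnb1 (-0.31), Birc5 (-0.28) and Prc1 (-0.24), and 1378 of all 12705 genes. Over these 4 comparisons, the 95% intervals of single genes ran from -0.61 at the lowest bound to 0.58 at the highest, so changes below about that size may have gone undetected.

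**Figure D1:**
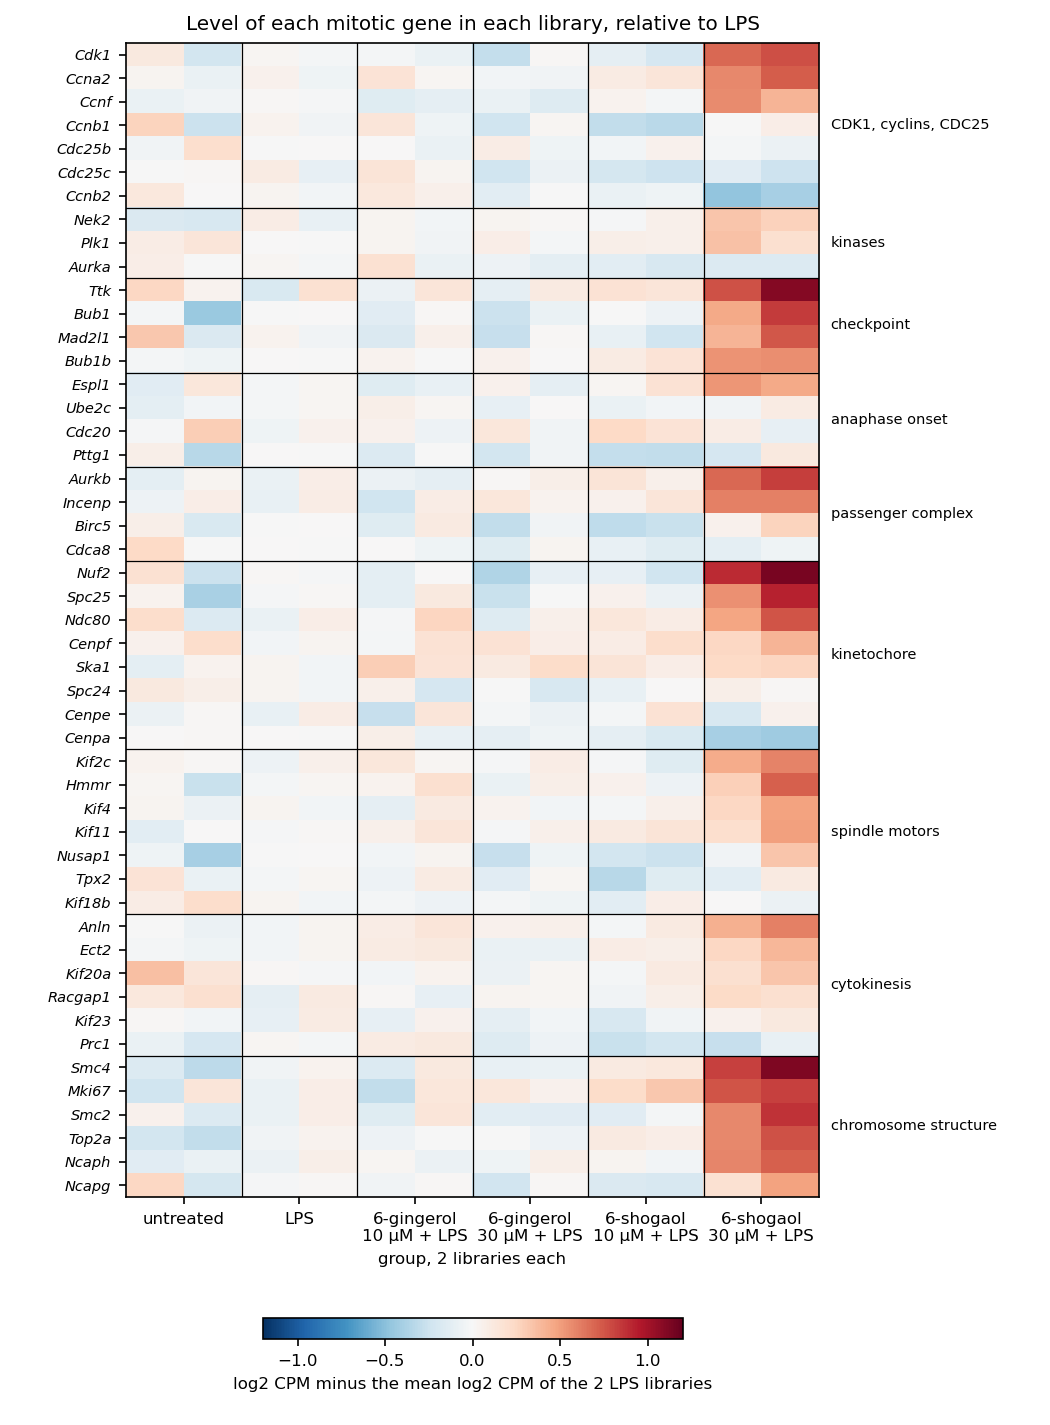
Each row is 1 of the 49 genes, ordered by role and then by change, and each column 1 of the 12 libraries. Colour is log2 CPM minus the mean log2 CPM of the 2 LPS libraries. The 30 µM 6-shogaol columns are red for 27 genes called higher and blue for Ccnb2 and Cenpa, while no gene was called in the other groups against LPS.

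**Figure D2:**
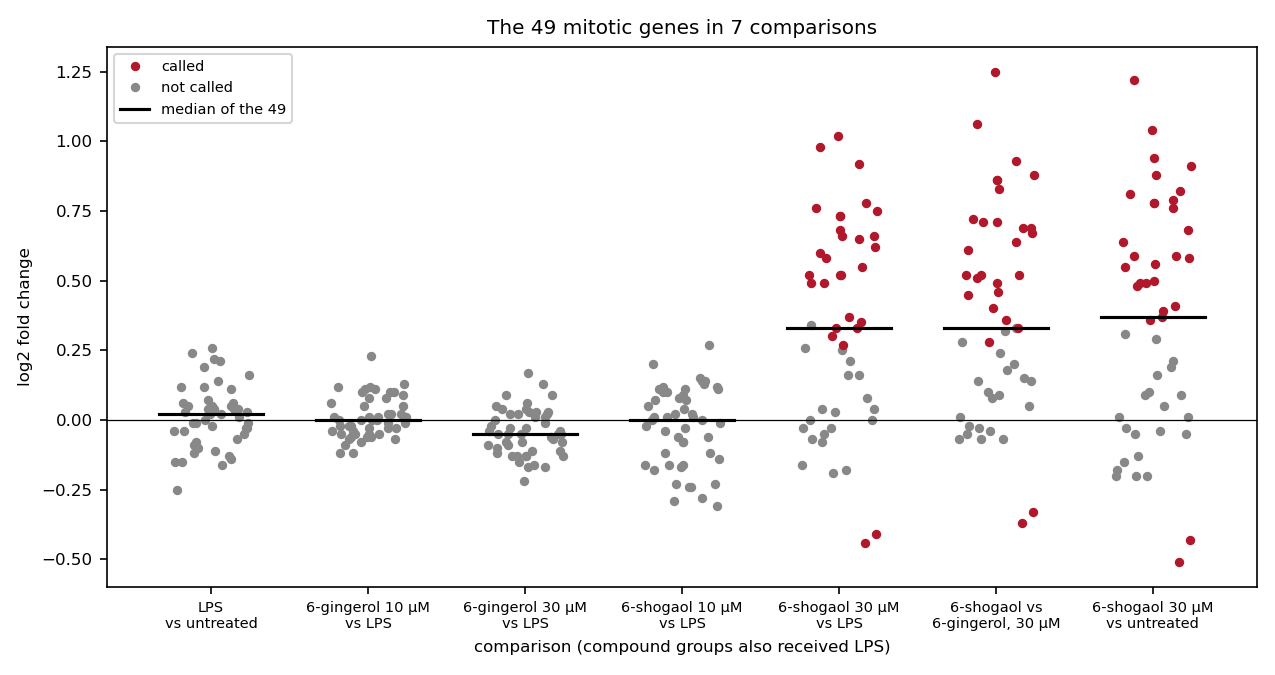
Each point is 1 of the 49 genes in 1 of 7 comparisons, with its log2 fold change on the vertical axis and the median as a line. Red points passed an adjusted p of 0.05 in edgeR. Called genes appear only in the 3 comparisons with 30 µM 6-shogaol, where the medians were 0.33, 0.33 and 0.37.

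A rise was not called across the whole set. Of the 20 genes not called against LPS, 18 had a 95% interval wholly within -0.5 to 0.5 on the log2 scale, and the lowest and highest bounds among all 20 were -0.47 and 0.64. Some genes called higher changed by less than 0.5, so these intervals do not show that the 18 lacked a smaller rise. By role, those called higher were all 4 checkpoint genes and 5 of 6 genes of chromosome condensation, 4 of 7 spindle genes, 4 of 8 kinetochore genes, 2 of 4 passenger complex genes, 2 of 3 mitotic kinases, 3 of 7 genes around CDK1, 2 of 6 cytokinesis genes and 1 of 4 anaphase genes. Of all genes tested, 12.6% were called higher and 12.8% lower. The 1 gene called lower of 7 around CDK1 and the 1 of 8 kinetochore genes were near that share. Differences between genes or roles were not tested. Changes in the paragraphs on roles are log2 fold changes against LPS, and positions are on build GRCm38.

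Chromosome condensation and structure showed the highest median of the 9 roles, 0.70 on the log2 scale. Smc4, an ATPase subunit of both condensins (ENSMUSG00000034349, chromosome 3, 69004738 to 69034623), stood at 104 and 94.1 CPM in untreated cells, 113 and 120.4 with LPS, 104 and 127, then 110.0 and 110.1, with LPS and 10 or 30 µM 6-gingerol, 126 and 128 with LPS and 10 µM 6-shogaol, and 206 and 254 with LPS and 30 µM 6-shogaol. Both libraries with 30 µM 6-shogaol lay well above the other 10 (log2 fold change 0.98, 95% interval 0.73 to 1.23, adjusted p = 2.4e-05). Smc2, its partner ATPase, rose by 0.73 and the condensin I subunit Ncaph by 0.65. Another condensin I subunit, Ncapg, was at 104 and 76.1 CPM in untreated cells, 86.9 and 89.1 with LPS, 85.5 and 88.6, then 75 and 88.7, with LPS and 10 or 30 µM 6-gingerol, 78.2 and 77.1 with LPS and 10 µM 6-shogaol, and 99.8 and 123 with LPS and 30 µM 6-shogaol. One 30 µM 6-shogaol value lay below that of untreated replicate 1, and the gene was not called (log2 fold change 0.34, 95% interval 0.05 to 0.64, adjusted p = 0.0835). Ncapg was called without a count filter, with fragment length as a covariate, without one or both untreated libraries, in the compared groups alone and without 30 µM 6-shogaol replicate 1. Mki67, the coat protein of mitotic chromosomes known as the proliferation marker Ki-67, had the highest CPM of the role, 297 and 389 CPM in untreated cells, 334 and 371 with LPS, 287 and 386, then 386 and 365, with LPS and 10 or 30 µM 6-gingerol, 411 and 439 with LPS and 10 µM 6-shogaol, and 593 and 621 with LPS and 30 µM 6-shogaol. It was raised 1.72-fold (log2 fold change 0.78, 95% interval 0.47 to 1.10, adjusted p = 0.00112). Top2a, which untangles sister chromatids, rose by 0.68 (95% interval 0.47 to 0.88).

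All 4 genes of the spindle assembly checkpoint rose, with a median of 0.62. Ttk, the kinase (MPS1) that starts checkpoint signalling at kinetochores (ENSMUSG00000038379, chromosome 9, 83834689 to 83872389), was at 27.6 and 23.9 CPM in untreated cells, 20.4 and 26.2 with LPS, 22 and 25.5, then 21.5 and 24.9, with LPS and 10 or 30 µM 6-gingerol, 26.2 and 25.6 with LPS and 10 µM 6-shogaol, and 39.2 and 49.6 with LPS and 30 µM 6-shogaol. The 30 µM 6-shogaol libraries differed from each other, and both exceeded all others (log2 fold change 0.92, 95% interval 0.61 to 1.24, adjusted p = 0.000347). Bub1b, which encodes BubR1 of the mitotic checkpoint complex, stood at 138 and 135 CPM in untreated cells, 140.5 and 139 with LPS, 144 and 139.9, then 145 and 140.3, with LPS and 10 or 30 µM 6-gingerol, 150.3 and 157 with LPS and 10 µM 6-shogaol, and 204 and 206 with LPS and 30 µM 6-shogaol. Its replicates were close in every group, and the 30 µM 6-shogaol values stood clear of the rest (log2 fold change 0.55, 95% interval 0.37 to 0.73, adjusted p = 0.000249). Bub1, the kinase that recruits BubR1, rose by 0.66 and Mad2l1, the CDC20 inhibitor MAD2, by 0.58. Without 30 µM 6-shogaol replicate 2, neither Bub1 (0.46) nor Mad2l1 (0.41) passed the threshold, and Mad2l1 was also lost without either LPS library.

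Of the 4 genes of anaphase onset, separase rose and the other 3 were not called. Espl1, which encodes separase, was at 76.8 and 92.8 CPM in untreated cells, 83.1 and 85.5 with LPS, 76 and 79.3, then 87.2 and 78.2, with LPS and 10 or 30 µM 6-gingerol, 85.8 and 94.9 with LPS and 10 µM 6-shogaol, and 122 and 115 with LPS and 30 µM 6-shogaol. Both 30 µM 6-shogaol values were above the other 10 (log2 fold change 0.49, 95% interval 0.26 to 0.72, adjusted p = 0.00333). In the authors' normalized values the change was 0.36 and not called. Ube2c, the APC/C's ubiquitin-conjugating enzyme and the most abundant of the 49 transcripts per length (mean TPM, a level scaled for gene length, of 249), was at 166 and 177 CPM in untreated cells, 177 and 183 with LPS, 189.8 and 184, then 168 and 181, with LPS and 10 or 30 µM 6-gingerol, 171 and 176 with LPS and 10 µM 6-shogaol, and 175 and 193 with LPS and 30 µM 6-shogaol. Its groups overlapped (log2 fold change 0.03, 95% interval -0.17 to 0.22, adjusted p = 0.856). Pttg1, securin, was at 30 and 22.7 CPM in untreated cells, 28.7 and 28.5 with LPS, 25.6 and 28.4, then 24.5 and 27.7, with LPS and 10 or 30 µM 6-gingerol, 23.5 and 23.2 with LPS and 10 µM 6-shogaol, and 24.8 and 31.1 with LPS and 30 µM 6-shogaol. Again the groups overlapped (log2 fold change -0.03, 95% interval -0.34 to 0.27, adjusted p = 0.902). Cdc20, the APC/C activator, had a log2 fold change of -0.00 (95% interval -0.26 to 0.26).

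Around CDK1, the kinase, cyclin A2 and cyclin F rose, cyclin B1 was not called and cyclin B2 fell. Cdk1 (ENSMUSG00000019942, chromosome 10, 69335146 to 69352938) was at 115 and 91.3 CPM in untreated cells, 108 and 104 with LPS, 105 and 101, then 87.2 and 107, with LPS and 10 or 30 µM 6-gingerol, 98.7 and 92.3 with LPS and 10 µM 6-shogaol, and 172 and 182 with LPS and 30 µM 6-shogaol. The 2 values with 30 µM 6-shogaol were far above the range of the others (log2 fold change 0.73, 95% interval 0.48 to 0.99, adjusted p = 0.000414). Ccna2, cyclin A2, rose by 0.66 (adjusted p = 0.000158) and Ccnf, cyclin F, a substrate receptor of an SCF ubiquitin ligase, by 0.49 (adjusted p = 0.00176). Ccnb1, cyclin B1, was at 256 and 178 CPM in untreated cells, 219 and 206 with LPS, 236 and 205, then 179.7 and 216, with LPS and 10 or 30 µM 6-gingerol, 173 and 170.4 with LPS and 10 µM 6-shogaol, and 212 and 225 with LPS and 30 µM 6-shogaol. Its 2 untreated libraries spanned the values of all other groups but 10 µM 6-shogaol, and no change was called (log2 fold change 0.04, 95% interval -0.27 to 0.34, adjusted p = 0.879). Ccnb2, cyclin B2 (ENSMUSG00000032218, chromosome 9, 70407692 to 70421547), was at 116 and 107 CPM in untreated cells, 108 and 104 with LPS, 116 and 110.5, then 97.2 and 106, with LPS and 10 or 30 µM 6-gingerol, 100.4 and 102 with LPS and 10 µM 6-shogaol, and 76.3 and 80.4 with LPS and 30 µM 6-shogaol. It was the gene with the lowest fold change of the set, with both 30 µM 6-shogaol libraries below the other 10 (log2 fold change -0.44, 95% interval -0.63 to -0.24, adjusted p = 0.00282). The phosphatases Cdc25b (-0.05, 95% interval -0.26 to 0.17) and Cdc25c (-0.19, 95% interval -0.47 to 0.09) were not called.

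Of 8 kinetochore genes, 4 rose, 1 fell and 3 were not called. Nuf2 (ENSMUSG00000026683, chromosome 1, 169497934 to 169531464), a subunit of the NDC80 complex that grips microtubules, had the highest fold change of the set. It was at 51.7 and 38.2 CPM in untreated cells, 46.2 and 45.1 with LPS, 42 and 45.9, then 35.5 and 42.6, with LPS and 10 or 30 µM 6-gingerol, 42.8 and 38.6 with LPS and 10 µM 6-shogaol, and 84.7 and 101 with LPS and 30 µM 6-shogaol, and both 30 µM 6-shogaol libraries were far above the other 10 (log2 fold change 1.02, 95% interval 0.72 to 1.32, adjusted p = 0.000103). Its partners Spc25 and Ndc80 rose by 0.75 (95% interval 0.42 to 1.07) and 0.62 (0.31 to 0.93), and the fourth subunit, Spc24, was not called, at 0.04 (-0.22 to 0.31, adjusted p = 0.835). The Ndc80 call was lost without LPS replicate 1 or 30 µM 6-shogaol replicate 2. Cenpf, a large kinetochore protein of G2 and mitosis, was at 91.9 and 103 CPM in untreated cells, 86.7 and 91.2 with LPS, 87.4 and 100.0, then 100.4 and 94.1, with LPS and 10 or 30 µM 6-gingerol, 94.3 and 103 with LPS and 10 µM 6-shogaol, and 106 and 118 with LPS and 30 µM 6-shogaol. The 30 µM 6-shogaol values were just above the highest of the others, 103 CPM (log2 fold change 0.33, 95% interval 0.10 to 0.55, adjusted p = 0.0317), and the call was lost without either LPS library, without 30 µM 6-shogaol replicate 2, with library totals and in the authors' normalized values (0.12). Cenpa, the histone H3 variant that marks centromeres (ENSMUSG00000029177, chromosome 5, 30666777 to 30674830), was at 77.1 and 77.7 CPM in untreated cells, 76.8 and 76.7 with LPS, 80.7 and 72.2, then 71.1 and 74, with LPS and 10 or 30 µM 6-gingerol, 71.3 and 67.6 with LPS and 10 µM 6-shogaol, and 58.2 and 57.1 with LPS and 30 µM 6-shogaol. Both 30 µM 6-shogaol libraries were below all others (log2 fold change -0.41, 95% interval -0.61 to -0.21, adjusted p = 0.00454). The kinesin Cenpe (-0.07) and the microtubule-binding Ska1 (0.25) were not called.

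The chromosomal passenger complex, which corrects wrong attachments and later directs cytokinesis, split into a pair that rose and a pair that was not called. Aurkb, its kinase Aurora B, was at 38.4 and 42.6 CPM in untreated cells, 39.4 and 44.2 with LPS, 39.8 and 38.7, then 42.2 and 43.9, with LPS and 10 or 30 µM 6-gingerol, 46.5 and 43.6 with LPS and 10 µM 6-shogaol, and 67.3 and 74.3 with LPS and 30 µM 6-shogaol. The 30 µM 6-shogaol libraries stood apart from the rest (log2 fold change 0.76, 95% interval 0.53 to 0.98, adjusted p = 0.000102). Incenp, the scaffold that activates Aurora B, was at 115 and 127 CPM in untreated cells, 113 and 128 with LPS, 102 and 128, then 132 and 124, with LPS and 10 or 30 µM 6-gingerol, 125 and 133 with LPS and 10 µM 6-shogaol, and 183 and 183 with LPS and 30 µM 6-shogaol. It had the same level in both 30 µM 6-shogaol libraries, above all others (log2 fold change 0.60, 95% interval 0.36 to 0.84, adjusted p = 0.00117). Cdca8, borealin, was at 88.7 and 74.9 CPM in untreated cells, 75.4 and 75.3 with LPS, 75.8 and 72.6, then 68.1 and 77.2, with LPS and 10 or 30 µM 6-gingerol, 71 and 68 with LPS and 10 µM 6-shogaol, and 69.5 and 72.6 with LPS and 30 µM 6-shogaol. Its 30 µM 6-shogaol values lay among those of the other groups (log2 fold change -0.08, 95% interval -0.31 to 0.14, adjusted p = 0.602). Birc5, survivin, was at 0.16 (95% interval -0.10 to 0.42).

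Of the 3 mitotic kinases outside these complexes, Nek2 and Plk1 rose slightly and Aurka did not. Nek2, which separates centrosomes, was at 72.9 and 71.7 CPM in untreated cells, 87.3 and 77.3 with LPS, 83.9 and 80.3, then 84.2 and 83.2, with LPS and 10 or 30 µM 6-gingerol, 81.3 and 85.7 with LPS and 10 µM 6-shogaol, and 103 and 99.7 with LPS and 30 µM 6-shogaol. Its 30 µM 6-shogaol values were above the other 10 (log2 fold change 0.30, 95% interval 0.11 to 0.50, adjusted p = 0.0249). Aurka, Aurora A of the spindle poles, was at 157 and 148 CPM in untreated cells, 151 and 147 with LPS, 169 and 141, then 143 and 137, with LPS and 10 or 30 µM 6-gingerol, 137 and 130.3 with LPS and 10 µM 6-shogaol, and 133 and 133 with LPS and 30 µM 6-shogaol. The 30 µM 6-shogaol libraries were at 133 CPM each, within the range of 10 µM 6-shogaol (log2 fold change -0.16, 95% interval -0.37 to 0.05, adjusted p = 0.251). Plk1, polo-like kinase 1, had the smallest change among the genes called (0.27, adjusted p = 0.0412), and it was lost without any 1 of 7 libraries: both LPS, both 30 µM 6-gingerol and both 10 µM 6-shogaol libraries, and 30 µM 6-shogaol replicate 1. It was also lost with library totals, without a count filter, with fragment length as a covariate and in the authors' normalized values. Nek2 was lost without LPS replicate 2, without either 30 µM 6-shogaol library and without a count filter.

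Among spindle motors and microtubule proteins, 4 of 7 rose. Kif2c, the microtubule-depolymerizing kinesin MCAK of centromeres, was at 37.8 and 37 CPM in untreated cells, 35.2 and 38.2 with LPS, 40.4 and 37.3, then 36.3 and 39.1, with LPS and 10 or 30 µM 6-gingerol, 36.2 and 33.1 with LPS and 10 µM 6-shogaol, and 50.1 and 55.5 with LPS and 30 µM 6-shogaol. The 2 values with 30 µM 6-shogaol were above the other 10 (log2 fold change 0.52, 95% interval 0.30 to 0.75, adjusted p = 0.0021). Hmmr, a spindle assembly factor, rose by 0.52, Kif4, a chromosome-bound kinesin, by 0.37, and Kif11, the kinesin Eg5 that pushes spindle poles apart, by 0.35. These 3 calls were lost without either LPS library and without 30 µM 6-shogaol replicate 2, and that of Kif4 also in the authors' normalized values (0.19). Tpx2, the activator of Aurora A at the spindle, was at 219 and 185 CPM in untreated cells, 192 and 199 with LPS, 188 and 209, then 178 and 199, with LPS and 10 or 30 µM 6-gingerol, 155 and 177 with LPS and 10 µM 6-shogaol, and 179 and 211 with LPS and 30 µM 6-shogaol. The 30 µM 6-shogaol values lay inside the range of the others (log2 fold change -0.00, 95% interval -0.25 to 0.25, adjusted p = 0.986). Kif18b, a kinesin of astral microtubule ends, was at 25.2 and 27.5 CPM in untreated cells, 24.4 and 23.2 with LPS, 23.4 and 22.8, then 23.4 and 23, with LPS and 10 or 30 µM 6-gingerol, 21.8 and 25.1 with LPS and 10 µM 6-shogaol, and 23.9 and 22.7 with LPS and 30 µM 6-shogaol. All 12 libraries lay between 21.8 and 27.5 CPM (log2 fold change -0.03, 95% interval -0.27 to 0.21, adjusted p = 0.879). Nusap1, which bundles microtubules near chromosomes, was at 0.16 (95% interval -0.12 to 0.44).

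In the last step, 2 of 6 midzone and cytokinesis genes rose. Anln, anillin of the contractile ring, was at 78 and 74.8 CPM in untreated cells, 76.5 and 80.5 with LPS, 83.4 and 86.7, then 81.4 and 81.9, with LPS and 10 or 30 µM 6-gingerol, 77.1 and 84.4 with LPS and 10 µM 6-shogaol, and 106 and 119 with LPS and 30 µM 6-shogaol. Both 30 µM 6-shogaol libraries were above the rest (log2 fold change 0.52, 95% interval 0.32 to 0.72, adjusted p = 0.000999). Ect2, the exchange factor that activates RhoA at the equator, rose by 0.33 (95% interval 0.12 to 0.53), a call lost without either LPS library, without 30 µM 6-shogaol replicate 2 and without a count filter. Prc1, the bundler of midzone microtubules, was at 152 and 140.1 CPM in untreated cells, 164 and 158 with LPS, 172 and 174, then 145 and 154, with LPS and 10 or 30 µM 6-gingerol, 134 and 138 with LPS and 10 µM 6-shogaol, and 133 and 152 with LPS and 30 µM 6-shogaol. It was highest with LPS and 10 µM 6-gingerol and not called with 30 µM 6-shogaol (log2 fold change -0.18, 95% interval -0.38 to 0.02, adjusted p = 0.187). The centralspindlin pair Kif23 (0.08, 95% interval -0.15 to 0.31) and Racgap1 (0.21, -0.00 to 0.42) and the midzone kinesin Kif20a (0.26, 0.04 to 0.49, adjusted p = 0.0789) were not called. Kif20a was called without one or both untreated libraries.

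**Figure D3:**
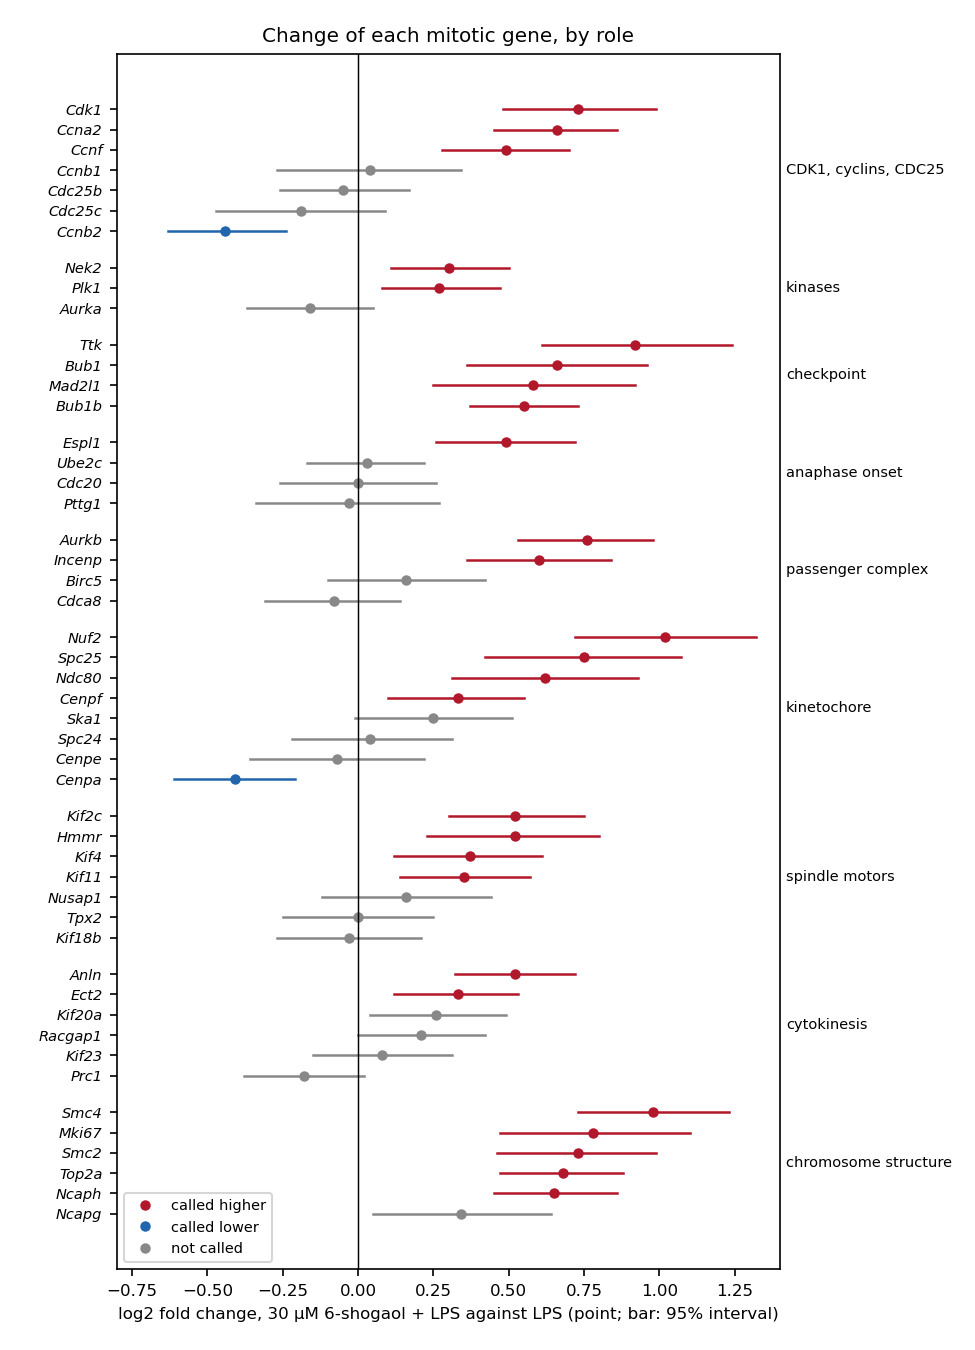
Points are log2 fold changes of 30 µM 6-shogaol with LPS against LPS for the 49 genes, grouped by role, and bars are 95% intervals. Genes called higher (red, 27) and lower (blue, 2) stand beside genes not called (grey, 20) in 8 of the 9 roles, the checkpoint being the exception.

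**Figure D4:**
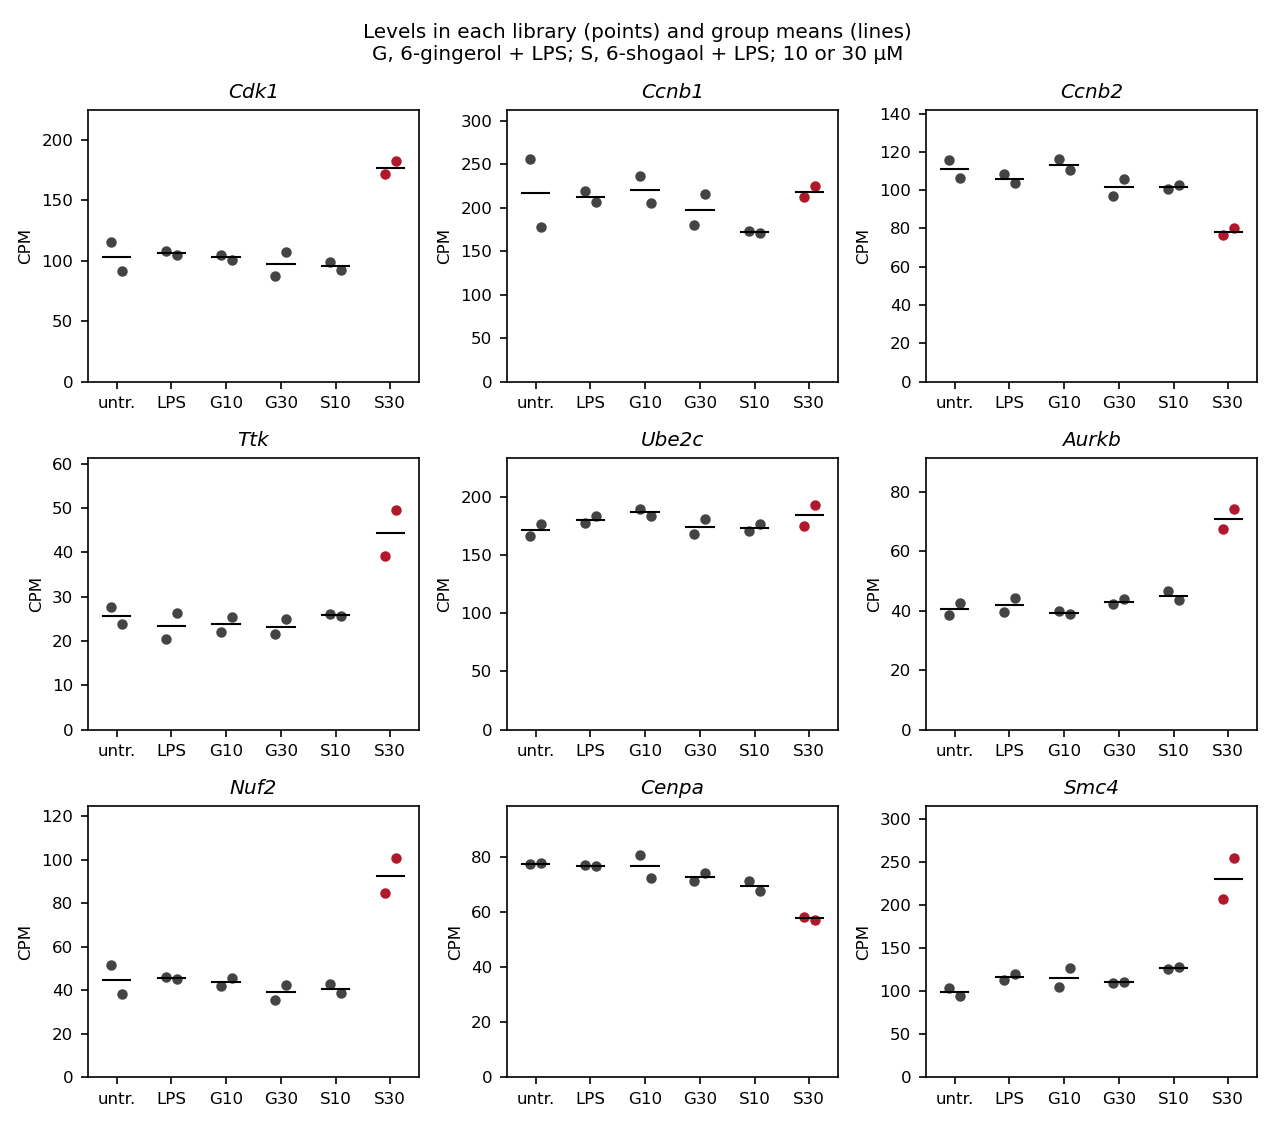
Points are CPM in single libraries and lines are group means for 9 of the genes given in full, on axes that start at 0. Cdk1, Ttk, Aurkb, Nuf2 and Smc4 are higher in both 30 µM 6-shogaol libraries (red), Ccnb2 and Cenpa are lower, and Ccnb1 and Ube2c overlap with other groups.

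The 2 compounds were then compared at matched doses, in 2 pairs, with p-values adjusted over all genes within each pair. At 10 µM, where 0.638% of all genes differed, edgeR called 0 of the 49 genes, and DESeq2, limma-voom and limma on the authors' values also called none. The log2 differences, 6-shogaol minus 6-gingerol, ran from -0.36 to 0.34 and their 95% intervals from -0.67 to 0.65. At an unadjusted p under 0.05 there were 7, of which Ccnb1, Cdc25c, Aurka, Birc5, Tpx2 and Prc1 were lower with 6-shogaol and Mki67 was higher. Of all 12705 genes tested, 1857 passed that unadjusted threshold, a share near that of the 49. At 30 µM, 26 of the 49 were higher with 6-shogaol, as were 12.5% of all genes, and 2, Ccnb2 (-0.37, 95% interval -0.57 to -0.18) and Cenpa (-0.33, -0.53 to -0.13), were lower, as were 12.4% of all genes. Both calls were lost without 30 µM 6-gingerol replicate 2 or 30 µM 6-shogaol replicate 1. That of Cenpa was also lost without the other library of either group, without a count filter and in the authors' normalized values. The median was 0.33, with Nuf2 (1.25, 95% interval 0.94 to 1.55), Smc4 (1.06, 0.82 to 1.31) and Ttk (0.93, 0.62 to 1.25) at the top. Plk1 (0.24, adjusted p = 0.0665) and Cenpf (0.20, adjusted p = 0.185) were not called, and Ncapg was (0.45, adjusted p = 0.0282). These comparisons use the same 30 µM 6-shogaol libraries as those with LPS and are no independent repeat of them.

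Between the doses of 6-shogaol, 26 genes were higher at 30 than at 10 µM, as were 9.85% of all genes, and 1, Ccnb2 (-0.37, adjusted p = 0.0108), was lower, as were 9.54% of all genes. The median was 0.35. The Ccnb2 call was lost without either 10 µM 6-shogaol library or 30 µM 6-shogaol replicate 1. Cenpa was at -0.27 (adjusted p = 0.0574). Birc5 (0.44, adjusted p = 0.0214), Ncapg (0.52, adjusted p = 0.0161) and Nusap1 (0.40, adjusted p = 0.0446) were called here and not against LPS. Many of the higher calls were lost without either 10 µM 6-shogaol library or without 30 µM 6-shogaol replicate 2. The number of all genes called higher fell in these fits too. The step from 10 to 30 µM was larger for 6-shogaol than for 6-gingerol in 17 of the 49 genes (median difference 0.35), against 4.27% of all genes. Most of these 17 calls were lost without 30 µM 6-shogaol replicate 2 or 30 µM 6-gingerol replicate 1. Most were also lost without 10 µM 6-gingerol replicate 2 or either 10 µM 6-shogaol library, with library totals or in the authors' normalized values. Such calls over all genes also fell in each of these settings.

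Against untreated cells, 30 µM 6-shogaol with LPS left 26 genes higher (13.3% of all genes) and 2, Ccnb2 (-0.51) and Cenpa (-0.43), lower (12.1% of all genes), with a median of 0.37. Smc4 (1.22, adjusted p = 3.33e-06) and Nuf2 (1.04, adjusted p = 8.35e-05) had the largest differences. The 2 untreated libraries differed more than the pair of any other group. Their chi-square of counts per gene, at library totals without TMM, was 35.3, against 6.11 to 15.8 in the other groups. Among the mitotic genes, Ccnb1 (256 and 178 CPM) and Mki67 (297 and 389 CPM) were examples. Mean fragment lengths in the 2 untreated libraries were 226.7 and 247.8 bases. The part of fragment length in that difference was not tested. In the 30 µM 6-shogaol libraries it was 235.6 and 244.1 bases and in the LPS libraries 237.0 and 223.0 bases. With fragment length as a covariate, 27 genes were called higher against LPS, with Ncapg in and Plk1 out, and 2 lower. The main fit shares 1 estimate of the spread over all groups, so its p-values against untreated may be too small. In an edgeR fit of the 30 µM 6-shogaol and untreated libraries alone, adjusted p was 0.0183 for Ccnb2 and 0.043 for Cenpa. The main fit gave 0.000981 and 0.00376. The fit of these groups alone called 1097 of 12204 genes higher, against 1696 of 12705 in the main fit.

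Other cell cycle genes were read from lists in the comparison of 30 µM 6-shogaol with LPS, beside shares of 12.6% higher and 12.8% lower among all genes tested. Of 45 DNA replication and G1/S genes, 42 were higher and 3 not called, with a median of 0.90, from the thymidylate synthase Tyms (-0.11, not called) to the repressor E2f7 (2.11). Their median exceeded that of the mitotic set, but the difference between the lists was not tested. Of 39 further spindle, centrosome and cytokinesis genes, 23 were higher and 16 not called (median 0.48), with the augmin subunit Haus5 at the top (1.03) and Cdca3 at the bottom (-0.20, not called). Of 43 further kinetochore, checkpoint and cohesion genes, 17 were higher and 2 lower (median 0.29). The cohesin acetyltransferase Esco2, which acts in S phase, was at 1.45, and those lower were Sgo1 (-0.44), the shugoshin that guards centromeric cohesion, and the centromere gene Cenpp (-0.42). Of 23 further G2/M regulators, 10 were higher and 1 lower (median 0.31), with Fbxo5, the APC/C inhibitor EMI1, at 1.08 (95% interval 0.82 to 1.34) and the phosphatase Cdkn3 at -0.55 (-0.95 to -0.15). Of 18 p53 targets and brakes on the cycle, 5 were higher and 3 lower (median 0.06), the count lower being near the share over all genes. Rbl1, the pocket protein p107, was at 1.15, and Mdm2, a p53 target that restrains p53, at -1.52. All genes tested had a median of -0.00.

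**Figure D5:**
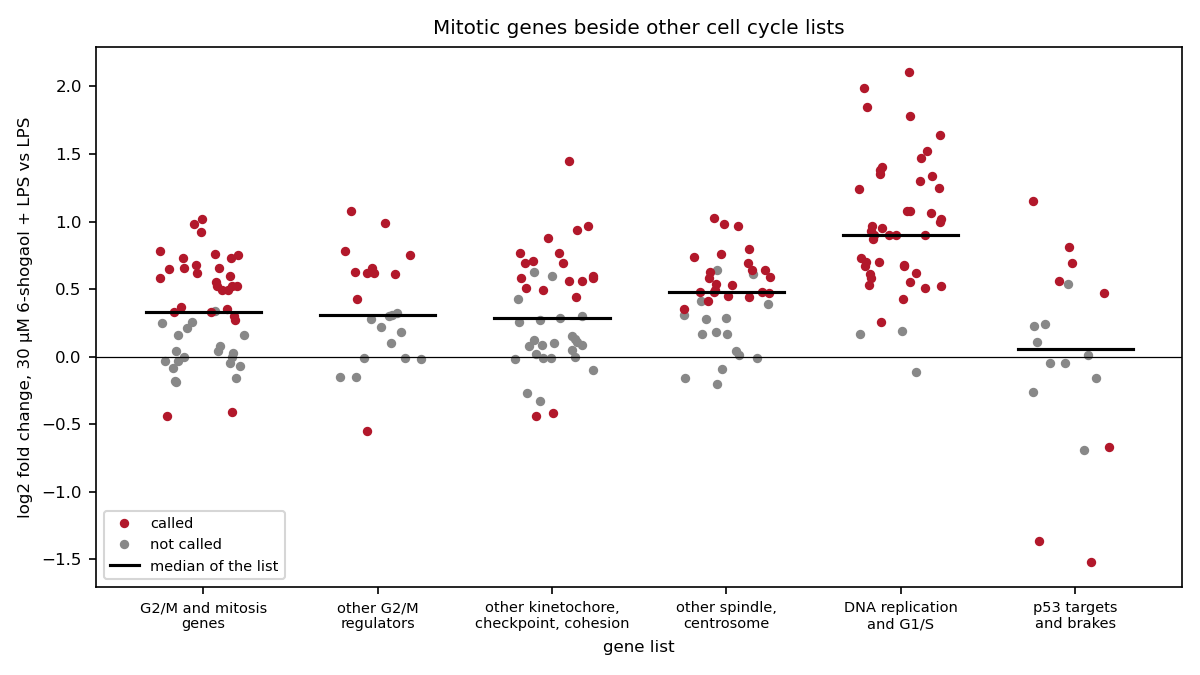
Points are log2 fold changes of 30 µM 6-shogaol with LPS against LPS for the 49 genes and 5 other cell cycle lists, with list medians as lines and called genes in red. The DNA replication list has the highest median (0.90), and the mitotic set (0.33) lies near the lists of other G2/M regulators (0.31) and of other kinetochore genes (0.29).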

How the data were processed

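RNA was measured in 12 libraries of BV2 cells, 2 in each of 6 groups, from TRIzol extracts by stranded mRNA sequencing, per the labels' protocols. The authors deposited a gene table per library with an RSEM expected count and a TPM value, per the file headers, and a table of normalized signal whose method is not given in the sources used here. The submitters' processing notes name Trimmomatic 0.39, STAR 2.7.11b, RSEM 1.3.3, DESeq2 1.44.0 and the build GRCm38, without the role of each. Gene positions came from GENCODE M21 (GRCm38). A reference list of gene names gave a symbol for 97.8% of identifiers.

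Expected counts were rounded, filtered with filterByExpr (minimum count 10), scaled by TMM and fitted over all 12 libraries in edgeR 4.0.16 (R 4.3.3) with 6 group means, leaving 6 residual degrees of freedom. The quasi-likelihood F test, 2-sided, was adjusted by Benjamini-Hochberg over 12705 genes within each of the 9 contrasts and the difference of the dose steps, and called under 0.05. Every adjusted p in the text is from this test unless another tool is named. The biological coefficient of variation was 9.45%. All 49 members passed the filter, with totals of 2973 to 91150 counts. RSEM divides reads shared with similar sequences, and the expected counts of Ccna2, Ccnb1, Plk1, Nek2, Ndc80, Kif4, Nusap1, Kif20a and Ncapg (9 of 49) were not whole in some library, so their values are less certain. TPM served only to compare levels between genes.

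The members, lists and promoter elements were chosen with earlier results of these data known. Values in every library are given for the members with the highest mean CPM and with the largest and smallest change with 30 µM 6-shogaol in each role, and for other lists the genes at both ends; a few others were named after their values were seen. Alternatives were DESeq2 1.42.0, limma-voom and limma-trend (limma 3.58.1; on log2 of the authors' signal plus 1), other scalings, no filter, a replicate block, fragment length as a covariate, fewer groups, and each library left out. The fit was tested on simulated data.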

Additional observations from a re-analysis of the deposited data

Results flagged for a closer look

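In 17 genes of the set the step from 10 to 30 µM differed between the compounds, by the interaction term of the edgeR fit. The values are log2 differences, 6-shogaol's step minus 6-gingerol's, and all 17 were positive. Over all 12705 genes tested, this difference was called higher in 542 (4.27%) and lower in 496. Of 45 DNA replication and G1/S genes, 34 were called higher and 0 lower. Among kinetochore genes, Nuf2 had 1.36 (SE 0.20, adjusted p = 0.00105) and Spc25 0.89 (adjusted p = 0.0217). Around CDK1, Cdk1 had 0.97 (SE 0.17, adjusted p = 0.00327), Ccna2 0.66 and Ccnf 0.47. Among chromosome structure genes, Smc2 had 0.94, Smc4 0.93, Ncaph 0.62 and Top2a 0.58. The checkpoint genes Mad2l1, Ttk, Bub1 and Bub1b had 0.82, 0.81, 0.81 and 0.41. In the passenger complex, Birc5 had 0.60 (adjusted p = 0.0487) and Aurkb 0.52 (adjusted p = 0.0447). Kif2c had 0.65 and Anln 0.54. Birc5 was the 1 gene of the 17 not called with 30 µM 6-shogaol against LPS. Without 30 µM 6-shogaol replicate 2 or 30 µM 6-gingerol replicate 1 most of the 17 calls were lost. The same held without 10 µM 6-gingerol replicate 2 or either 10 µM 6-shogaol library, with library totals and in the authors' normalized values. In each of these settings, calls over all genes also fell.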

How the results depend on the processing

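For 30 µM 6-shogaol against LPS, 23 to 29 genes were called higher and 2 lower under the 10 alternatives that kept every library of the compared groups. Over all genes, those called higher ran from 1245 of 13469 in the authors' table to 1996 of 12144 in the compared groups alone. Those called lower ran from 1293 to 2025 in the same 2 settings. Leaving out each library in turn gave 18 to 29 higher and 2 lower. Of the 27 genes higher, 16 kept their call under all 22 alternatives, as did Ccnb2 and Cenpa, and no called gene changed sign. Labels number the replicates, but same-numbered libraries did not deviate together (15 correlations between groups from -0.31 to 0.18). With the replicate block, 27 were higher and 2 lower against LPS, and the difference of the dose steps was called in 15 genes. For LPS against untreated, 1 gene was higher in DESeq2 and 0 to 1 with a library left out (Bub1 without untreated replicate 1). Fitting the compared groups alone, 10 µM 6-shogaol against LPS gave 1 gene higher, Mki67, and 4 lower, Birc5, Ccnb1, Nusap1 and Prc1. Over all 12281 genes of that fit, 338 were called higher and 632 lower. For the compounds at 30 µM, leaving out each library gave 18 to 30 higher and 0 to 2 lower, and 1 was lower without a count filter and 1 in the authors' normalized table. Between the doses of 6-shogaol these were 14 to 27 higher and 0 to 2 lower, and 2 were lower with library totals, without the untreated libraries and in the compared groups alone. Against untreated they were 19 to 27 higher and 2 lower, and 1 was lower in the authors' table. The difference of the dose steps was called in 4 to 23 genes with a library left out: 4 without 30 µM 6-shogaol replicate 2, 5 without 30 µM 6-gingerol replicate 1 or either 10 µM 6-shogaol library, and 8 and 10 without 10 µM 6-gingerol replicates 2 and 1. It was called in 7 genes with library totals and 8 in the authors' table. Over all genes it was called higher in 262 of 12705 and in 305 of 13469, against 542 of 12705 in the main fit. With library totals the median of all genes was -0.147 in that difference and 0.105 for the compounds at 10 µM, against 0.003 and -0.006 with TMM. The share of calls that were higher over all genes then went from 52.2% to 25.7%, and from 12.3% to 30.4%, from 50.8% to 37.8% between the 6-shogaol doses and from 64.8% to 53.3% for LPS against untreated. Without TMM, 25 mitotic genes were higher against LPS. With 1 library left in a group, its spread was taken from the other groups. Leaving out a library of a compared group also lowered the number of all genes called higher for 30 µM 6-shogaol against LPS. The same held against 30 µM 6-gingerol, against 10 µM 6-shogaol and in the difference of the dose steps. The median half-width of the 49 genes' intervals against LPS, 0.24 on the log2 scale, limits what could be called. The causes of these changes were not tested.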
